A study of Mus musculus with 16 samples.

Results

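The genes described here are 10 members of the tetraspanin family, Cd9, Cd63, Cd81, Cd82, Cd37, Cd53, Cd151, Tspan3, Tspan4 and Tspan14. They were found by gene symbol in a table of 17951 genes, and all 10 were listed there with values in all 16 libraries. The rule used their names and no measured value, although earlier results of these data were known when the names were picked.

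Tetraspanins are small proteins that cross the membrane several times and gather integrins, immunoglobulin superfamily proteins and each other into microdomains of the plasma membrane. Several of them are also sorted into late endosomes, lysosomes and exosomes, and CD63 is the classical marker of those compartments. In microglia, the resident macrophages of the brain, Cd9 and Cd63 are widely used as markers of the state that cells take on around amyloid plaques.

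Microglia were sorted from mouse brain by CD11b and CD45, with CX3CR1 and a live-cell gate added according to the methods of the study. Every animal, wild-type controls included, had first been injected with methoxy-X04 (Me-X04), a dye that enters the brain and binds amyloid. The transgenic (TG) mice were 5xFAD animals, which carry mutant human transgenes driven by the neuronal Thy1 promoter and form amyloid plaques. Total RNA of each sorted population was amplified and sequenced as bulk libraries.

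The WT group held 7 libraries of Me-X04 negative microglia from mice labelled as 2 months old. The dye-negative TG group (TG Me-X04-) held 5 libraries and the dye-positive group (TG Me-X04+) 4 libraries, all from mice labelled as 6 months old, and the dye signal was the gate that divided them. By their genotype labels the TG libraries numbered 1 to 4 of both groups came from the same 4 animals, and the fifth TG animal gave a dye-negative library only. Age and genotype cannot be told apart in any comparison with WT, and the methods of the study give ages other than those of the labels. In sorted bulk RNA, more cells with a transcript and more transcript per cell cannot be told apart either.

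Levels are given as log2 RPKM, the log2 of reads per kilobase of gene length, scaled to the size of the library, so that a difference of 1 is a 2-fold difference. The libraries held 15623664 to 22119327 reads on listed genes in WT, 17216633 to 25184600 in dye-negative TG and 22430251 to 27579017 in TG Me-X04+ cells. The dye-positive libraries stood apart from the dye-negative TG libraries in both sets of libraries described below. Their scaled library size was 0.54 to 0.98 of their reads against 0.79 to 1.43, and 450 to 1831 listed genes were at 0 reads against 83 to 703. A gene was called when its adjusted p (limma with Benjamini-Hochberg adjustment over all 17951 genes) was below 0.05 and its log2 fold change was at least 0.7 in either direction. Apart from the groups, the libraries fell into 2 sets along the first principal component of their deviations from the group means, which held 37.8% of that variance. Set A held 7 libraries (WT 1 to 3 and the libraries of TG animals 1 and 2) and set B the other 9, so each group has libraries in both sets. The methods name 2 sequencer models without saying which library was run on which, and what divides the sets was not tested.

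All 8 microglial markers of a list were listed, with a summed level of 3952 to 7996 RPKM per TG library and 4530 to 6951 RPKM per WT library. Tmem119, a homeostatic microglial gene, was the one marker of the 8 called lower in TG Me-X04+ than in dye-negative TG. Against WT, 2 of the 8 were called lower in TG Me-X04+ and 0 higher. Of the listed markers of other cells, 1 of 3 for neurons and 1 of 2 for monocytes were also called lower against WT. Calls of endothelial markers are given further below. No gene of the pericyte and T cell lists was listed, and the summed levels of the lists for oligodendrocytes, astrocytes, neurons, endothelium, border macrophages, monocytes, neutrophils, B cells and platelets stayed at or below 32.9 RPKM in every library.

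On GRCm38, by the Gencode M21 annotation, the genes lie on 7 chromosomes. The endosomal and surface members are Cd63 on chr10:128900989-128912822 (plus strand), Cd9 on chr6:125460266-125494791 (minus strand), Cd81 on chr7:143052739-143067934 (plus strand) and Cd82 on chr2:93419111-93463140 (minus strand). The leukocyte members are Cd37 on chr7:45233632-45239115 (minus strand) and Cd53 on chr3:106759921-106790149 (minus strand). Cd151 and Tspan4 are neighbours, with Cd151 on chr7:141467392-141471473 (plus strand) and Tspan4 on chr7:141475240-141493427 (plus strand). The others are Tspan3 on chr9:56131725-56165477 (minus strand) and Tspan14 on chr14:40906445-40966807 (minus strand).

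Promoter sequences are shown for the members that moved together, Cd9 and Cd63, and for the leukocyte members Cd37 and Cd53. Each window runs from 250 bases before to 50 bases after a RefSeq transcription start on GRCm38.p6 and is written in the direction of transcription. Capitals mark the letters searched on both strands, which were an E-box and a PU.1 core. The E-box was searched as CACGTG, which reads the same on both strands, and in a second form as CATGTG, which reads CACATG on the opposite strand; both are read by factors of the MITF and TFEB family. The core of the myeloid factor PU.1 was searched as GAGGAAGT, which reads ACTTCCTC on the opposite strand.

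Cd9 promoter, chr6:125494711-125495010, minus strand: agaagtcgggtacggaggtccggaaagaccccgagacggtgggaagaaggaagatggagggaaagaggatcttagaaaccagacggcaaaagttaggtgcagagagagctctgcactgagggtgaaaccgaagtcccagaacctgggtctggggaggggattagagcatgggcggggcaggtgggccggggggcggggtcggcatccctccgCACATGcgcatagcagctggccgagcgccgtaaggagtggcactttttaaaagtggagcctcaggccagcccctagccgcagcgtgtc
Cd63 promoter, chr10:128909095-128909394, plus strand: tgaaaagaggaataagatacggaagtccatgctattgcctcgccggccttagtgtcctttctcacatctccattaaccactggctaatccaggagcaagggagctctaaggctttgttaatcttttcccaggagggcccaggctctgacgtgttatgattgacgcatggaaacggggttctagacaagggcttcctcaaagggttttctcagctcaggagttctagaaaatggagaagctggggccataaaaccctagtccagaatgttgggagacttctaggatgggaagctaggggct
Cd37 promoter, chr7:45238790-45239089, minus strand: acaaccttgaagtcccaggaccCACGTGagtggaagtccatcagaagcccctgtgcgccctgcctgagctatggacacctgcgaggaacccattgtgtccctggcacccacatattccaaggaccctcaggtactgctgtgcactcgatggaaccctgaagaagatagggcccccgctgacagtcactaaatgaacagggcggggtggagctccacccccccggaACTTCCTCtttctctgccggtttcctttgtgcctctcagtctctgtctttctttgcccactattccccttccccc
Cd53 promoter, chr3:106790100-106790399, minus strand: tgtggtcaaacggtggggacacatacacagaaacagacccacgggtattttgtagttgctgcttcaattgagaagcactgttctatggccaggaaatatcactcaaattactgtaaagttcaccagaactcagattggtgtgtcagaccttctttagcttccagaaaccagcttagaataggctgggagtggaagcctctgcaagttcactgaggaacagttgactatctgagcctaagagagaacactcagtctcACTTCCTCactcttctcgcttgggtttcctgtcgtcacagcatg

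The Cd9 window held the second E-box form, read on the opposite strand, from 38 bases before the start. The Cd63 window held none of the searched letters. It belongs to a start inside the annotated span of the gene, not at its outer end. Both leukocyte members held the PU.1 letters near the start, from 25 bases before it in Cd37 and from 6 bases after it in Cd53, and Cd37 held the first E-box form as well, 228 bases before it. RefSeq gave 16 windows for the 10 members: the first E-box form was in 2 of them (Cd37 and Tspan4), the second in 2 (Cd9 and Tspan3) and the PU.1 letters in 4 (Cd82, Cd37, Cd53 and Tspan14). Among all 32851 mouse promoters of the same length, 7.15% held the first E-box form, 14.2% held the second and 3.20% held the PU.1 letters on either strand. These matches describe letters in a window only.

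Between the dye-positive and dye-negative cells of TG mice, Cd9 and Cd63 were called higher in TG Me-X04+, and the other 8 members were not called. This count of 2 of 10 stands beside 5.49% of all 17951 genes called in either direction, 3.44% called higher and 2.06% called lower. Groups did not overlap for Cd9, Cd63 and Tspan3, that is for 3 of 10 members, all higher in TG Me-X04+, beside 7.93% of all genes, 4.80% higher and 3.14% lower. The median log2 fold change of the members was 0.24 and that of all genes was -0.09. In the plot of differences between groups, the intervals of Cd9 and Cd63 lie apart from 0 in all 3 comparisons, those of Tspan3 do so in both comparisons with TG Me-X04+, that of Tspan4 against dye-negative TG only, and the rest cross it.

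**Figure D1:**
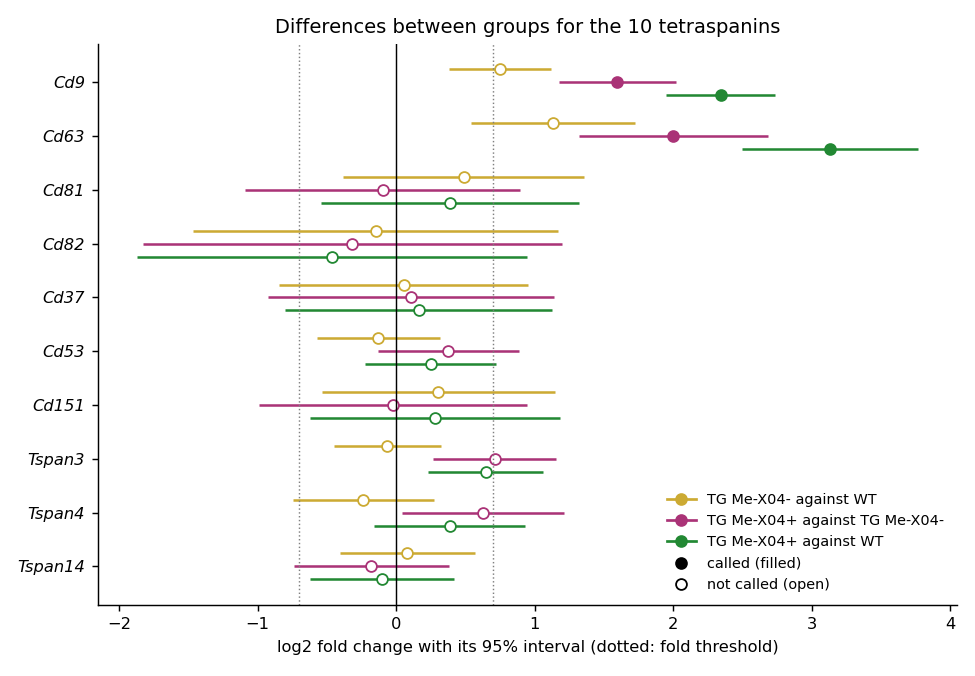
The x axis gives the log2 fold change of each tetraspanin (y axis) in 3 comparisons, with lines for 95% intervals from the limma fit, filled points for called differences and dotted lines at the fold threshold of 0.7. Cd9 and Cd63 are called in both comparisons with TG Me-X04+, and Tspan3 lies near the threshold without being called.

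In TG Me-X04- against WT, none of the 10 members was called by limma, beside 0.201% of all genes, 0.189% called higher and 0.0111% called lower. None was called by limma voom on the recovered reads either. 2 members, Cd9 and Cd63, had an unadjusted p below 0.05 and were also the members whose groups did not overlap, beside 1.06% of all genes, 0.652% higher and 0.407% lower. With a term for the 2 sets of libraries both were called higher in TG Me-X04-, at a limma adjusted p of 0.0254 for Cd9 and 0.00467 for Cd63. The sets were found from the deviations of these same values, so p-values with that term can be too small. With array weights Cd63 alone was called, at a limma adjusted p of 0.0124. Cd9 had an adjusted p of 0.00472 there, and its log2 fold change of 0.67 missed the fold threshold. In TG Me-X04+ against WT, Cd9 and Cd63 were called higher, 2 of 10 beside 14.3% of all genes called, 8.25% higher and 6.02% lower. Again Cd9, Cd63 and Tspan3 did not overlap and were higher, beside 10.5% of all genes, 6.56% higher and 3.97% lower. The comparisons with TG Me-X04+ share its 4 libraries, so their counts are not separate evidence.

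Cd9 encodes a surface tetraspanin that is known for its part in cell fusion, adhesion and motility. Its level in WT ran from 5.50 over a median of 5.99 to 6.20 log2 RPKM. In dye-negative TG it was 6.35, 7.04, 6.83, 6.62 and 6.55, and in TG Me-X04+ it was 8.06, 8.62, 8.27 and 8.15 log2 RPKM. The 3 groups formed 3 separate ranges, with every dye-negative TG library above every WT library and every TG Me-X04+ library above both. Cd9 was 3.02-fold higher in TG Me-X04+ than in dye-negative TG (log2 fold change 1.60, SE 0.20, adjusted p = 0.000259) and 5.08-fold higher than in WT (log2 fold change 2.34, SE 0.19, adjusted p = 3.85e-07). Between TG Me-X04- and WT the log2 fold change was 0.75 (95% interval 0.38 to 1.12, adjusted p = 0.144), which did not pass the threshold, and it was 0.88 among set A libraries and 0.65 among those of set B. Quantile normalization left the call but moved the log2 fold change of TG Me-X04+ against dye-negative TG from 1.60 to 0.85 and that against WT from 2.34 to 1.61. With libraries scaled by their reads outside mitochondrial genes in place of the scaled sizes, the log2 fold change of Cd9 between the TG groups was 1.20 (adjusted p = 0.00532), and the part of the library differences in it was not tested.

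Cd9 was also the member whose levels differed least between the 2 sets of libraries. The mean of set B minus that of set A was 0.20 log2 units in WT, -0.03 in dye-negative TG and -0.13 in TG Me-X04+, and the sets overlapped in every group. The log2 difference between dye-positive and dye-negative TG cells was 1.64 in the libraries of set A and 1.54 in those of set B. Within the 4 animals that gave both populations, the dye-positive cells were higher by 1.71, 1.58, 1.44 and 1.54 log2 units.

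Cd63 encodes the tetraspanin of late endosomes, lysosomes and exosomes. Its level in WT ran from 2.69 over 4.10 to 4.48 log2 RPKM. It was 4.89, 4.55, 5.57, 4.97 and 5.06 in dye-negative TG and 6.55, 6.83, 7.53 and 7.13 in TG Me-X04+. As for Cd9, the 3 groups did not overlap, although the highest WT library and the lowest TG Me-X04- library were separated by less than 0.1 log2 units. Cd63 was 4.00-fold higher in TG Me-X04+ than in dye-negative TG (log2 fold change 2.00, SE 0.32, adjusted p = 0.00158) and 8.78-fold higher than in WT (log2 fold change 3.13, SE 0.30, adjusted p = 3.30e-06). The log2 fold change of TG Me-X04- against WT was 1.13 (95% interval 0.54 to 1.73, adjusted p = 0.190), with 1.39 among set A libraries and 0.92 among those of set B. Quantile normalization moved the log2 fold change between the TG groups from 2.00 to 1.40 and that against WT from 3.13 to 2.59, with both calls kept. Scaling by reads outside mitochondrial genes gave 1.61 for Cd63 between the TG groups (adjusted p = 0.0252).

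Unlike Cd9, Cd63 was higher in set B than in set A in every group, with no overlap, by 0.95 in WT, 0.48 in dye-negative TG and 0.65 in TG Me-X04+. Its difference between TG Me-X04+ and dye-negative TG was 1.97 among set A libraries and 2.13 among those of set B. The 4 animals with both populations gave 1.66, 2.28, 1.97 and 2.16 log2 units.

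**Figure D2:**
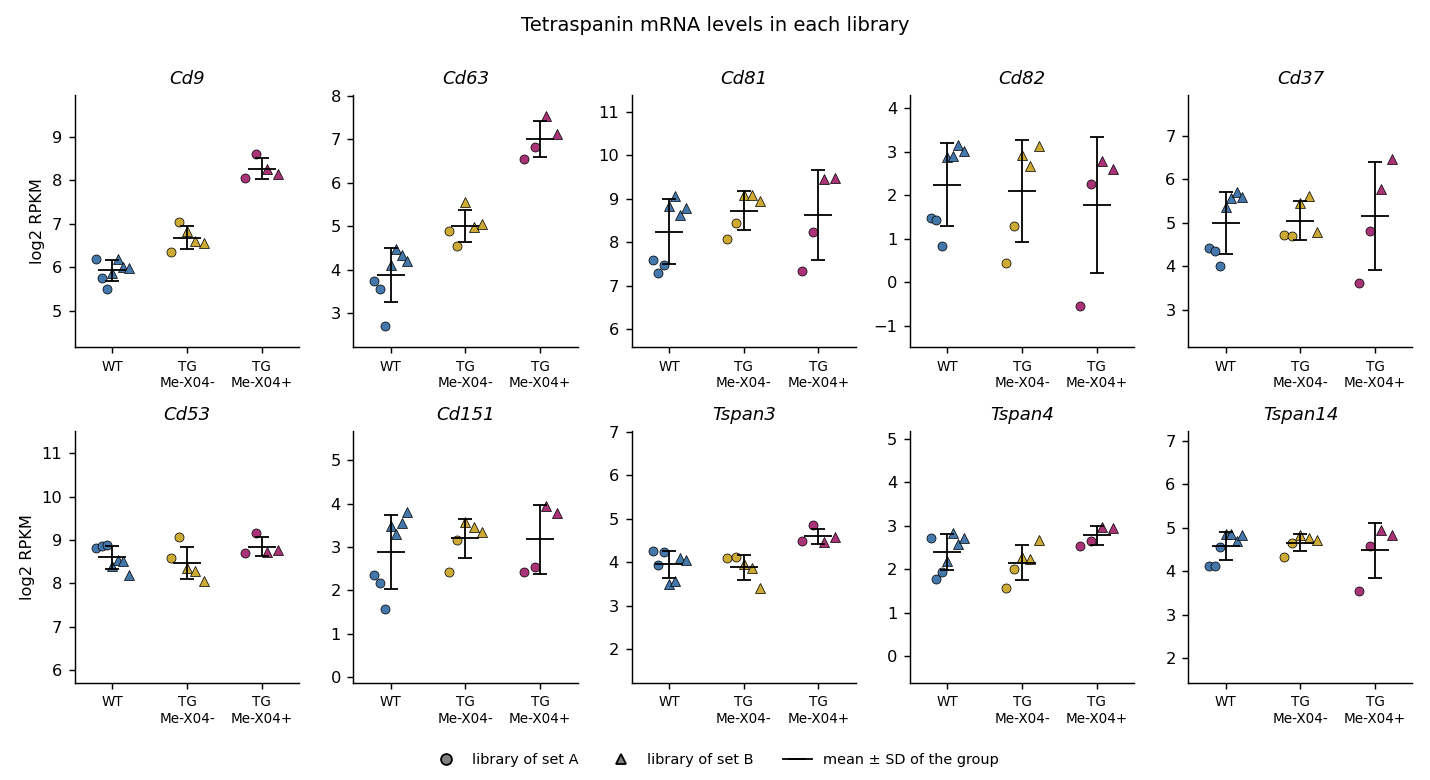
Each panel gives the log2 RPKM (y axis, the same span of log2 units in every panel) of 1 tetraspanin in the 16 libraries by group, with circles for set A, triangles for set B and bars for the mean ± SD of the group. For Cd9 and Cd63 the 3 groups do not overlap, with WT lowest and TG Me-X04+ highest. Cd63, Cd81, Cd82, Cd37, Cd151 and Tspan14 part by set within each group.

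Part of the Cd63 signal could not be assigned to one locus. The table also lists Cd63-ps, a transcribed processed pseudogene. Its transcript shares 387 of the 3991 distinct stretches of 50 bases found over all annotated Cd63 transcripts (9.70%). The longest of those transcripts has 2894 bases, whereas the gene length behind the Cd63 values was 1031 bases. The share within that counted length was not computed and can be larger. Reads on Cd63-ps came to between 36.5% and 56.1% of the Cd63 reads in the 7 libraries of set A, and to between 78.1% and 131% in the 9 libraries of set B. The pseudogene's own level was 1.56 log2 units higher in TG Me-X04+ than in dye-negative TG (adjusted p = 0.150) and 2.64 higher than in WT (adjusted p = 0.00321). Reads of a spliced copy and of its parent can be placed on either, so the share of each was not resolved.

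With the reads of Cd63-ps added to those of Cd63, the log2 fold change of TG Me-X04+ against dye-negative TG was 1.83 (SE 0.42, adjusted p = 0.0174) and that against WT was 2.94 (SE 0.40, adjusted p = 7.67e-05). The summed levels in TG Me-X04+ were 7.04, 7.28, 8.37 and 8.03 log2 RPKM, all above the highest dye-negative TG library at 6.47. Over all libraries the separation of TG Me-X04- from WT did not hold in the summed values (limma adjusted p = 0.599). TG Me-X04- 2 at 5.13, of set A, was below WT 5 at 5.50, of set B. Within set A the lowest TG Me-X04- library was at 5.13 and the highest WT library at 4.31. Within set B these were at 6.00 and 5.50. Cd9-ps, the processed pseudogene of Cd9, held at most 2.23% as many reads as Cd9, and Gm26728, which shares 10.7% of the exon bases of Cd9 on the opposite strand, at most 5.90%.

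**Figure D3:**
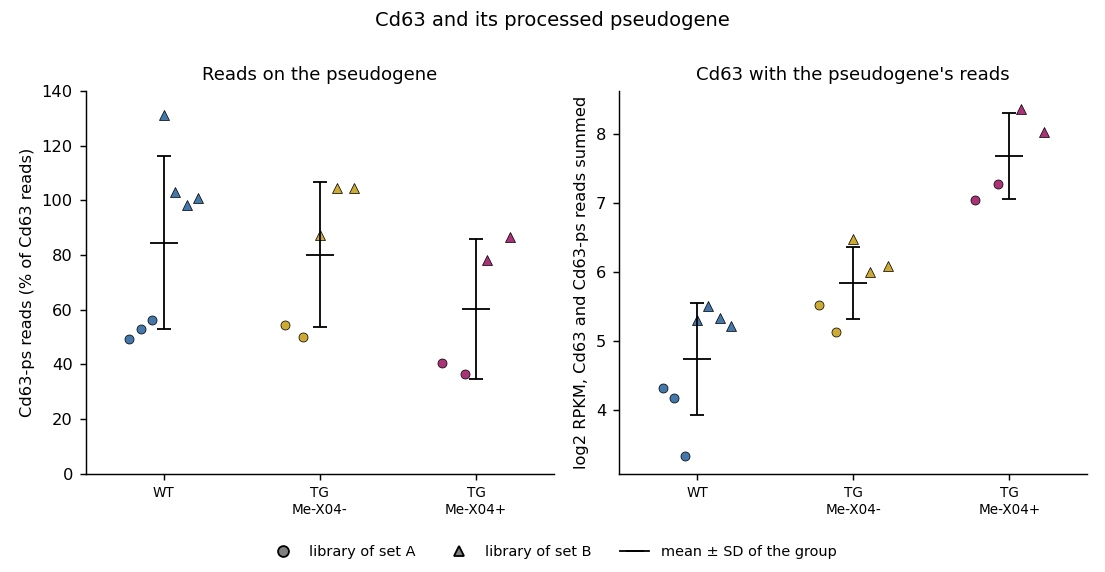
The left panel gives the reads on Cd63-ps as a percentage of the reads on Cd63 in each library, and the right panel the log2 RPKM of Cd63 with the reads of Cd63-ps added, by group, with circles for set A, triangles for set B and bars for the mean ± SD. The percentage is at most 56.1 in set A and at least 78.1 in set B, and the summed level stays highest in TG Me-X04+.

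Cd81 encodes a close relative of CD9, a surface tetraspanin known from the B cell co-receptor. It was the most or second most abundant member in every group by mean, at 8.24 ± 0.75 log2 RPKM in WT (SD, n = 7), 8.72 ± 0.45 in dye-negative TG (n = 5) and 8.63 ± 1.04 in TG Me-X04+ (n = 4). In TG Me-X04+ it was 7.33, 8.24, 9.45 and 9.48, with both set A libraries below both set B libraries. The log2 fold change against TG Me-X04- was -0.10 with a 95% interval of -1.09 to 0.90 (adjusted p = 0.940). It was -0.47 in set A alone and 0.43 in set B alone, and these differed by 0.90 (adjusted p = 0.321 by limma).

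Cd82 encodes a tetraspanin first known as a suppressor of metastasis, and Cd151 a partner of laminin-binding integrins. Cd82 was the lowest member by mean in each group, at 2.24 ± 0.96 in WT (SD, n = 7), 2.09 ± 1.17 in dye-negative TG (n = 5) and 1.78 ± 1.56 log2 RPKM in TG Me-X04+ (n = 4). Set B exceeded set A by 1.74 in WT, 2.04 in dye-negative TG and 1.83 in TG Me-X04+, without overlap, a gap wider than that of any other member except Cd37 in TG Me-X04+ (1.92). Its lowest value, -0.54 log2 RPKM in TG Me-X04+ 1, rested on 26 reads. The log2 fold change of Cd82 in TG Me-X04+ against dye-negative TG was -0.32 (95% interval -1.83 to 1.19), and without TG Me-X04+ 1 it was 0.46.

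Cd151 ran from 1.58 to 3.81 log2 RPKM in WT, from 2.43 to 3.58 in dye-negative TG and from 2.43 to 3.94 in TG Me-X04+. Its ranges overlapped almost wholly, and its log2 fold change between the TG groups was -0.02 (95% interval -0.99 to 0.94). Set B was higher by 1.50, 0.68 and 1.38 in the 3 groups, without overlap.

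Cd37 and Cd53 are the leukocyte members of the family. Cd53 was abundant and even, from 8.20 over 8.55 to 8.88 log2 RPKM in WT, and it was 8.58, 9.06, 8.37, 8.28 and 8.06 in dye-negative TG and 8.71, 9.17, 8.73 and 8.78 in TG Me-X04+. It was higher in the dye-positive cells of all 4 animals, by 0.11 to 0.50 log2 units, but its log2 fold change of 0.38 (95% interval -0.13 to 0.88, adjusted p = 0.439) did not pass the test. The direction of Cd53 turned under quantile normalization, to -0.47 against TG Me-X04- and to -0.73 against WT (adjusted p = 0.00639, limma), and under scaling outside mitochondrial genes, to -0.016 and -0.054. Its mean was lower in set B than in set A in each group, with overlap in TG Me-X04+, the opposite of Cd81, Cd82, Cd37 and Cd151.

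Cd37 was at 5.00 ± 0.71 log2 RPKM in WT (SD, n = 7), 5.05 ± 0.44 in dye-negative TG (n = 5) and 5.16 ± 1.24 in TG Me-X04+ (n = 4). Its TG Me-X04+ libraries stretched from 3.60 and 4.80 in set A to 5.77 and 6.46 in set B, on both sides of the dye-negative TG range of 4.69 to 5.61. The pooled log2 fold change of 0.11 (95% interval -0.92 to 1.14) therefore joined a difference of -0.51 among set A libraries and one of 0.84 among those of set B, which differed by 1.34 (adjusted p = 0.303 by limma). No member had an adjusted p below 0.05 in this test in any comparison, where 6 of all genes did in TG Me-X04+ against dye-negative TG.

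Tspan3 encodes a broadly expressed tetraspanin, and Tspan4 is known from retraction fibres and migrasomes, the vesicles that migrating cells leave behind. Tspan3 ran from 3.50 over 4.06 to 4.26 log2 RPKM in WT, and it was 4.10, 4.12, 3.96, 3.87 and 3.40 in dye-negative TG and 4.49, 4.86, 4.46 and 4.59 in TG Me-X04+. All 4 TG Me-X04+ libraries lay above every other library, and the dye-positive cells were higher in 4 of 4 animals, by 0.40 to 0.74 log2 units. The log2 fold change was 0.71 (SE 0.21, adjusted p = 0.0577) against TG Me-X04- and 0.65 (SE 0.20, adjusted p = 0.0337) against WT. The first missed the adjusted threshold and the second the fold threshold, so Tspan3 was not called in either. Tested only among genes with a mean level above 2 log2 RPKM, its difference between the TG groups was called (limma adjusted p = 0.0385). Of 26 alternative runs for that comparison, this was the only 1 that called it. Quantile normalization gave 0.43 (limma adjusted p = 0.233), and scaling by reads outside mitochondrial genes gave 0.32 (limma adjusted p = 0.268).

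Tspan4 was at 1.57, 2.00, 2.27, 2.24 and 2.67 log2 RPKM in dye-negative TG and at 2.53, 2.65, 2.98 and 2.95 in TG Me-X04+, so the groups overlapped by a single dye-negative TG library. It was higher in the dye-positive cells of 4 of 4 animals, by 0.65 to 0.96, with a log2 fold change of 0.63 (95% interval 0.04 to 1.21, adjusted p = 0.226). Its exons share 13.4% of their bases with Chid1 on the opposite strand, and since no strand setting of the counting is stated, the reads there cannot be told apart. Chid1 held up to 262% as many reads as Tspan4 in a library, and its own log2 fold change between the TG groups was -0.25. Tspan14, which belongs to the group of tetraspanins that guide the sheddase ADAM10 to the surface, was at 4.58 ± 0.33 in WT (SD, n = 7), 4.66 ± 0.20 in dye-negative TG (n = 5) and 4.48 ± 0.64 log2 RPKM in TG Me-X04+ (n = 4). The log2 fold change of Tspan14 between the TG groups was -0.18 (95% interval -0.74 to 0.38), with -0.41 in set A and 0.11 in set B. Set B was higher than set A without overlap, by 0.54 in WT, 0.29 in dye-negative TG and 0.82 in TG Me-X04+.

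The order of the members by mean level per gene length differed between groups. In WT it was Cd53, Cd81, Cd9, Cd37, Tspan14, Tspan3, Cd63, Cd151, Tspan4 and Cd82. The gaps between Cd53 and Cd81, Cd37 and Tspan14, Tspan3 and Cd63, Cd151 and Tspan4, and Tspan4 and Cd82 were smaller than the larger SD of the pair. In TG Me-X04- Cd63 stood behind Cd37 at rank 5, and its gaps to Cd37 above it and to Tspan14 below it were smaller than the larger SD of each pair. In TG Me-X04+ the order opened with Cd53, Cd81, Cd9 and Cd63, and the first 3 of these were within the SD of Cd81, whereas Cd63 was 1.85 log2 units above Cd37 and ahead of it in 4 of 4 libraries.

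The summed level of the 10 members was 748 to 1116 RPKM in WT, with a median of 936, and 838 to 1143 in TG Me-X04-, with a median of 1098. In TG Me-X04+ it was 997 to 1756 RPKM, with a median of 1615. Cd9 made up 5.90% to 9.11% of that sum in WT, 8.93% to 11.8% in dye-negative TG and 16.3% to 26.7% in TG Me-X04+. Cd63 made up a median of 1.76%, 3.41% and 8.70% in the same order. Cd53 and Cd81 held most of the remainder, with Cd81 at 16.1% to 40.9% in TG Me-X04+ depending on the set of the library.

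**Figure D4:**
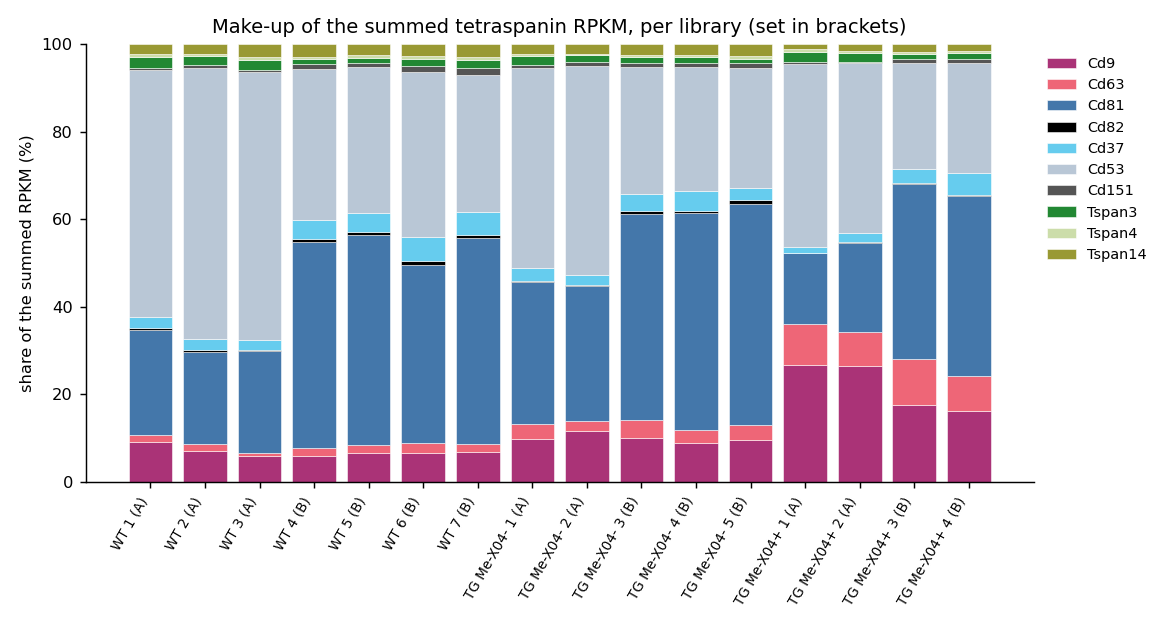
Stacked bars give the share (%) of each tetraspanin in the summed RPKM of the 10 members, for each of the 16 libraries by group, with the set in brackets. The Cd9 share is at most 11.8% in WT and dye-negative TG and at least 16.3% in TG Me-X04+, and the Cd81 share is lower in set A than in set B within each group.

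Ratios within a library do not depend on how libraries are scaled to each other, so Cd9 and Cd63 were also set against Cd81, their abundant relative. The log2 ratio of Cd9 to Cd81 was -2.31 ± 0.66 in WT (SD, n = 7), -2.05 ± 0.47 in dye-negative TG (n = 5) and -0.35 ± 1.06 in TG Me-X04+ (n = 4). It differed by 1.69 between TG Me-X04+ and dye-negative TG (exact two-sided permutation test, p = 0.0159, the smallest that these group sizes allow; adjusted p = 0.0238 over 6 tests). That test exchanged all 9 libraries freely and did not use the animals they share. Within the 4 animals with both populations the ratio was higher in the dye-positive cells of 4 of 4, by 1.06 to 2.46, with an exact p of 0.125 over sign changes, the smallest that 4 pairs allow. Against WT it differed by 1.96 (exact permutation p = 0.00606, adjusted p = 0.0182), and TG Me-X04- differed from WT by 0.26 (exact permutation p = 0.452). In the 2 TG Me-X04+ libraries of set A, Cd9 was above Cd81, at log2 ratios of 0.73 and 0.38, whereas in those of set B it was below, at -1.19 and -1.33.

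The log2 ratio of Cd63 to Cd81 was -4.36 ± 0.42 in WT, -3.72 ± 0.36 in dye-negative TG and -1.62 ± 0.67 in TG Me-X04+ (SD). It differed by 2.10 between the TG groups and by 2.75 between TG Me-X04+ and WT, with the same exact permutation p of 0.0159 and 0.00606. Within the 4 animals it was higher in the dye-positive cells of 4 of 4, by 1.59 to 2.47, again with an exact p of 0.125. Between TG Me-X04- and WT the difference of 0.65 had an exact permutation p of 0.0303 (adjusted p = 0.0364), and the groups overlapped. That last call was lost without any 1 of 9 of the 12 libraries, with adjusted p of up to 0.0873; it held without WT 1, WT 2 or TG Me-X04- 4. Labels were also permuted within the sets only, which were found from these same libraries. For TG Me-X04- against WT the exact permutation adjusted p was then 0.024 for the ratio of Cd63 and 0.0857 for that of Cd9. Reads on Cd63-ps were left out of the Cd63 ratio, which was not tested with them added. With those reads, the Cd63 levels of TG Me-X04- and WT overlapped, as given above.

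**Figure D5:**
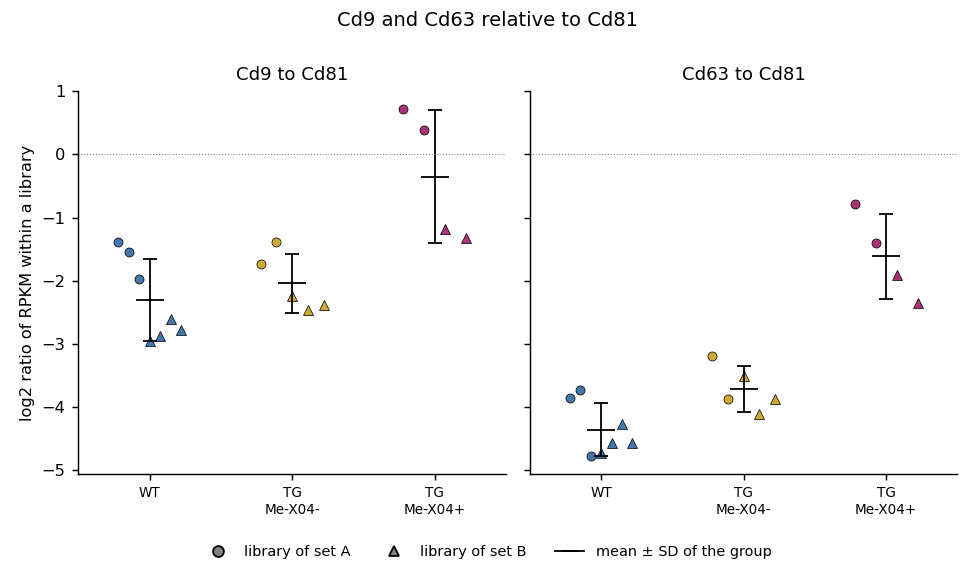
The y axis gives the log2 ratio of the RPKM of Cd9 (left) and Cd63 (right) to that of Cd81 in each library, by group, with circles for set A, triangles for set B, bars for the mean ± SD and a dotted line at equal levels. Both ratios are highest in the 4 TG Me-X04+ libraries, and the ratio of Cd9 parts by set within each group.

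Over the 16 libraries the levels of Cd9 and Cd63 had a Pearson r of 0.95, and r was 0.42 once the group means were removed, both given as descriptions. The genes whose levels were most like those of Cd9 were Serpine2 (r = 0.979), Eef1a1 (0.978), Ctsb (0.975), Rpl4 (0.973) and Glb1 (0.970). Serpine2 encodes a secreted protease inhibitor, Ctsb the lysosomal protease cathepsin B and Glb1 the lysosomal beta-galactosidase. Most like Cd63 were Eno1b (0.980), Lyz2 (0.979), the gene Gm13456 (0.975), Apoe (0.972) and Glb1 (0.972). Lyz2 encodes lysozyme and Apoe the lipid carrier apolipoprotein E. The 16 points share the group difference and the sets, and with group means removed r ranged from 0.53 to 0.74 for the genes named for Cd9 and from 0.75 to 0.87 for those named for Cd63.

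Beyond the 10 members, 12 of 21 further tetraspanin genes on a list were listed in the table. Between the TG groups 1 of the 12 was called, lower, beside 5.49% of all genes called and 2.06% called lower, and against WT 2 of 12 were called lower in TG Me-X04+, beside 6.02% of all genes. The one called between the TG groups was Tspan18, at 3.12 ± 1.10 log2 RPKM in WT, 2.77 ± 1.01 in dye-negative TG and 0.41 ± 1.08 in TG Me-X04+ (SD, n = 7, 5 and 4). It was lower in TG Me-X04+ by a log2 fold change of -2.35 against dye-negative TG (adjusted p = 0.0411, limma) and -2.71 against WT (adjusted p = 0.00508), without overlap. The call between the TG groups was lost under 6 of 17 alternative settings, among them median centring and voom on recovered reads, and without any 1 of 6 of the 9 libraries (TG Me-X04- 1, 2 and 5 and TG Me-X04+ 2, 3 and 4). Tspan1 was called lower against WT (log2 fold change -2.60, adjusted p = 0.0222), where its TG Me-X04+ libraries held 0 to 4 reads and its WT libraries 4 to 45, so that fold depends on the small number added to every read count. No further tetraspanin was called higher in any of the 3 comparisons, and Upk1b, at 5.49 log2 RPKM in WT, 5.02 in dye-negative TG and 4.69 in TG Me-X04+, was the most abundant of them in WT.

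Of 24 partner genes of tetraspanins on a list, 22 were listed, among them integrins, the immunoglobulin superfamily partners Igsf8 and Ptgfrn, sheddases and genes of exosome formation. None was called between the TG groups, beside 5.49% of all genes, or between TG Me-X04- and WT, beside 0.201% of all genes. In TG Me-X04+ against WT, 4 of 22 were called higher and none lower, beside 8.25% of all genes called higher. They were the adhesion receptor Cd44 (-2.94 log2 RPKM in WT and 0.30 in TG Me-X04+), Ptgfrn (log2 fold change 1.63), the integrin alpha chain Itga5 (1.00) and the leukocyte integrin beta chain Itgb2 (1.00). Sdcbp, Pdcd6ip and Tsg101, which take part in exosome formation with CD63, had log2 fold changes of 0.56, 0.19 and 0.54 between the TG groups, none past the test, and the median over the 22 genes was 0.25.

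CD9 and CD63 are also found on platelets and on macrophages at the brain borders, and values for those lists stand beside the results. Gp9, the one platelet marker of 4 that was listed, ran from 3.18 to 32.9 RPKM in WT, from 1.99 to 15.2 in dye-negative TG and up to 7.50 RPKM in TG Me-X04+, and it was not called in any comparison. All 6 border macrophage markers were listed, with summed levels of 2.48 to 5.97 RPKM in WT, 1.74 to 6.88 in dye-negative TG and 2.76 to 20.8 in TG Me-X04+. None of the 6 was called in any comparison. Of 5 endothelial markers 3 were listed, with summed levels of 2.31 to 12.6 RPKM in WT, 1.60 to 2.63 in TG Me-X04- and 1.22 to 7.86 in the dye-positive cells. Flt1 was called higher in TG Me-X04+ in both of its comparisons, and Pecam1 was called lower against WT. Between the TG groups the mean of Pecam1 went from 0.53 to -1.94 log2 RPKM and that of Cdh5 from -1.25 to -3.67 in the dye-positive cells, neither called. The part of such cells in the levels of Cd9 and Cd63 was not tested.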

How the data were processed

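Sorted microglia of 3 groups were sequenced (16 libraries; 15623664 to 27579017 reads on listed genes). The authors trimmed reads with Trim Galore 0.4.4, aligned them to GRCm38 with STAR 2.5.4b, counted them per gene of Gencode M16 with featureCounts, removed low genes and scaled library sizes by TMM in edgeR 3.24.3. Whether counting used strand is not given in the sources used here. The deposited values are log2 RPKM per gene and library. Symbols came from the table for 12919 genes and from a reference table of gene names, by gene identifier, for 4874. Columns with results of 2 comparisons by the authors (log2 fold changes, mean levels, test statistics and p-values) were not used.

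All 17951 genes were fitted in limma 3.58.1 (R 4.3.3) with 3 groups in 1 model and a variance trend, with p-values adjusted by Benjamini-Hochberg across the whole table. A call needed an adjusted p below 0.05 and a log2 fold change of at least 0.7 in size. The design expected log2 values and no pseudocount was added. Reads were recovered from the steps of the deposited values (100% whole within 0.01) and used for depth, for limma voom as an alternative and for the pseudogene sums. The smallest read count behind a member's value was 26 (Cd82). Ratios were tested by exact permutation over libraries (scipy 1.17.1). Gene coordinates, exon overlaps and shared stretches came from Gencode M21 on GRCm38, a later release than the authors' annotation, and promoters from RefSeq. The fits were tested on simulated data. TG libraries sharing a number are labelled as from 1 animal. The main limma fit did not use this pairing and treated all libraries as independent. The pairing entered only the block alternatives, the differences within animals and the sign changes of the ratios. Deviations of the paired libraries correlated at 0.292 to 0.329 in the 4 pairs, beside a mean of 0.272 between different animals of the same set. WT numbers mark other animals.

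The members and all gene lists were chosen with earlier results of these data known. Genes named beside the members were the other tetraspanins and partners that were called, the 5 most correlated with Cd9 and with Cd63, and defining markers of other cell types; Upk1b, Sdcbp, Pdcd6ip, Tsg101, the endothelial markers, the pseudogenes, Gm26728 and Chid1 were named after their values were seen. Alternatives covered the variance model, weights, scaling, pseudocounts, filters, blocks, the sets, voom and each library left out.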

Additional observations from a re-analysis of the deposited data

Results flagged for a closer look

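2 values stood far from the other libraries of their group by Dixon's test of gaps, out of 36 groups of values tested, where chance alone flags about 1 in 20. Cd82 in TG Me-X04+ replicate 1 was at -0.54 log2 RPKM, the lowest of its group, with the next library at 2.27. Cd53 in TG Me-X04+ replicate 2 was at 9.17 log2 RPKM, the highest of its group, with the next library at 8.78. Both libraries belong to set A. No member passed the limma test of a difference between the 2 sets in its response, with a lowest adjusted p of 0.303 (Cd37, TG Me-X04+ against TG Me-X04-).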

How the results depend on the processing

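The calls of Cd9 and Cd63 in both comparisons with TG Me-X04+ held in every alternative run, 26 each against TG Me-X04- and 27 each against WT. Their log2 fold changes between the TG groups ran from 0.85 to 1.69 for Cd9 and from 1.40 to 2.16 for Cd63, lowest under quantile normalization. Without 1 library they ran from 1.48 to 1.69 and from 1.83 to 2.16. The replicate block on the animal gave 1.57 and 2.01 (2 members called), the block on the replicate number over 3 groups 1.62 and 2.10, and no call of a member was changed by a block. The ratios to Cd81 between the TG groups were 1.61 (Cd9) and 2.06 (Cd63) within animals, both past the threshold without the pairing and at an adjusted p of 0.15 with it, where 4 pairs cannot pass. Scaling by reads outside mitochondrial genes moved the median log2 fold change of all genes from -0.09 to -0.46 between the TG groups, and Cd9 then stood at 1.20 and Cd63 at 1.61.

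For TG Me-X04- against WT, 1 member was called with array weights and 2 with a term for the sets, which were found from these same values. Between the TG groups, 0 other tetraspanins were called without a variance trend, with median centring, quantile normalization, a pseudocount of 1, only the 2 groups compared or voom, and 2 with scaling outside mitochondrial genes or the set term; without 1 library the count ran from 0 to 2. The partner count there was 1 with the set term or voom and 0 to 1 without 1 library. Against WT, 1 other tetraspanin was called with a pseudocount of 0.1 or either filter on low values (1 to 3 without 1 library), and 2 partners with quantile normalization, scaling outside mitochondrial genes or the filter at 2 (2 to 5 without 1 library). The ratio of Cd63 to Cd81 in TG Me-X04- against WT ran from 0.52 to 0.75 without 1 library, with adjusted p from 0.0208 to 0.0873.

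Directions turned for no member that was called; among the members not called, they turned as follows, and Cd53 against WT passed the test in the opposite direction under quantile normalization. Between the TG groups, Cd81 stood at 0.19 with array weights, 0.055 with the replicate block and 0.028 with the set term, and Cd151 at 0.20, 0.087 and 0.10, at 0.0084 with median centring, at 0.015 with the animal block and at 0.039 with voom. Quantile normalization gave -0.30 for Cd37 and -0.47 for Cd53, and scaling outside mitochondrial genes -0.28 and -0.016. Against WT in TG Me-X04+, quantile normalization gave -0.47 for Cd81, -0.24 for Cd37 and -0.73 for Cd53, scaling outside mitochondrial genes -0.14 for Cd37, -0.054 for Cd53 and -0.019 for Cd151, and the block 0.13 for Cd82 and 0.026 for Tspan14. In TG Me-X04- against WT, array weights gave -0.23 for Cd37, -0.054 for Cd151 and -0.0085 for Tspan14, scaling outside mitochondrial genes 0.025 for Tspan3, and the block 0.19 for Cd82. Without 1 library, the ranges between the TG groups were -0.28 to 0.22 for Cd151, -0.38 to 0.33 for Cd81, -0.73 to 0.46 for Cd82, -0.33 to 0.13 for Tspan14 and -0.33 to 0.63 for Cd37. Those of TG Me-X04- against WT were -0.11 to 0.17 for Cd37, -0.40 to 0.27 for Cd82 and -0.14 to 0.057 for Tspan3, and those of TG Me-X04+ against WT were -0.27 to 0.68 for Cd37, -0.80 to 0.31 for Cd82 and -0.26 to 0.21 for Tspan14. The cause was not tested.

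Over all genes, 986 were called between the TG groups, against 470 with only the 2 groups compared and 2142 with the set term. Without 1 library the count was 552 to 1021. The set term was found from the tested values, so its p-values can be too small. Against WT, 36 were called in TG Me-X04-, from 13 with a pseudocount of 1 to 175 with array weights, and 2562 in TG Me-X04+, from 1419 with the filter at 2 to 3919 with the set term. The interaction test, the permutation within sets, the ratios without 1 library or within animals and the pseudogene sums were chosen after the data were seen.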
